A study of Homo sapiens with 12 samples.

Results

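The genes followed here encode the subunits of the mitochondrial respiratory chain and of the ATP synthase. They were chosen by symbol: the NDUF genes of families A, B, C, S and V (complex I), SDHA to SDHD (complex II), the UQCR genes (complex III), the COX genes numbered 4 to 8 together with NDUFA4 (complex IV), and the ATP5 genes (complex V). NDUFA4, which current RefSeq calls COXFA4, was first described as a complex I protein and is counted with complex IV. The rule found 86 genes, 85 of them protein coding, among the 20708 genes that have a probe on the arrays. The pseudogene UQCRBP1 had no probe above background, so 85 genes were tested, 36 in complex I, 4 in complex II, 8 in complex III, 18 in complex IV and 19 in complex V, out of 18252 genes tested in all.

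RNA came from MDA-MB-231, an established human triple-negative breast cancer cell line, profiled on exon arrays in 4 groups of 3 replicates. All groups were transfected. The group cntrl received negative control oligonucleotides, mimic145 a precursor of miR-145-5p, sirnaAGO2 a Dicer-substrate siRNA against AGO2, and sirnaAGO2+mimic145 both agents. Doses and times were the same in all 4 groups. The precursor or its negative control was at 5 nM, and the siRNA or its negative control at 500 pM for 72 h. AGO2 encodes Argonaute 2, 1 of the 4 Argonaute proteins that a bound microRNA guides to its target mRNAs. The design asks which effects of the miRNA depend on AGO2. As a model it is 1 cell line, with transient transfection and a partial loss of the AGO2 mRNA.

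Complexes I to IV pass electrons from NADH and succinate to oxygen, and complexes I, III and IV pump protons out of the mitochondrial matrix. The proton gradient drives complex V, the ATP synthase. The subunits are encoded mostly in the nucleus, and cells keep many of their mRNAs abundant. A microRNA finds its targets mainly through its seed, bases 2 to 8, by pairing with the 3′ untranslated regions of mRNAs. The mature miR-145-5p that the mimic supplies is shown because it is the agent of both mimic comparisons. Its RefSeq sequence (GRCh38.p14, chr5:149430661-149430683, plus strand), with the seed in capitals, is:
miR-145-5p: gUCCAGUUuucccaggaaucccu

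The targeted gene AGO2 was checked first, over 19 probes. Its log2 signal was 9.12 ± 0.104 (SD, n = 3) in cntrl and 9.40 ± 0.0413 in mimic145, and was lower with the siRNA, 8.41 ± 0.0474 in sirnaAGO2 and 8.34 ± 0.0688 with both agents. The siRNA alone lowered it against cntrl (log2 difference -0.71, adjusted p = 0.00492, limma). With the methods' paired t-test after Benjamini-Hochberg adjustment this difference did not pass, and neither did it without any 1 of the 3 replicates or without the array of sirnaAGO2 replicate 1 (adjusted p = 0.0522). Genes known to be expressed in these cells had cntrl signals from 14.62 for VIM (vimentin) and 12.45 for KRT18 (keratin) to 9.16 for EGFR. ESR1, the estrogen receptor that this line lacks, had 6.97. Of the other markers listed as low in these cells, ERBB2 had 7.68 and PGR was not tested. CDH1, also listed as low, had 8.20, above the median of 8.05 for all genes tested. For 10 tested markers of blood, endothelial and stromal cells, the mean log2 signal of an array ran from 7.49 to 7.74 in cntrl, from 7.41 to 7.70 in mimic145, from 7.23 to 7.48 in sirnaAGO2 and from 7.40 to 7.74 with both agents. Single markers were brighter in cntrl, CD14 at 9.77 and CD3E at 9.60, both above EGFR. Of these markers 2 of 10 passed in each of the 3 comparisons of groups. With the mimic they were CD14 and LUM in control cells (22.6% of all genes passed) and CD14 and PDGFRB in silenced cells (7.27%). After silencing alone they were PECAM1 and LUM (2.58%). CD14, LUM and PECAM1 have 1 probe each, and the part of these markers in the results was not tested. In total RNA from a culture, fewer cells that express a gene and less RNA per cell cannot be told apart.

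The subunit genes were bright. Their median log2 signal in cntrl was 12.07, against 8.05 for all genes tested, which placed the median member at the 96.3rd percentile. A probe's brightness depends on its sequence as well as on RNA, so signals were not compared between genes beyond this description. In cntrl the highest gene values were those of ATP5MG (15.87), which encodes a small membrane subunit of the ATP synthase, NDUFA1 (15.43) and NDUFB2 (15.27). The lowest were COX7B2 (6.03), COX7A1 (7.41) and COX8C (7.72), isoforms whose expression is known mainly from testis or muscle, each measured by a single kept probe. Their partners COX7B, COX7A2 and COX8A, used in most tissues, had cntrl values of 14.40 to 14.53, 11.30 to 11.46 and 14.98 to 15.18. With a median of 4 kept probes per gene, the SE of a member's difference between 2 groups had a median of 0.0726 on the log2 scale, against 0.0990 for all genes.

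Addition of the mimic to control cells changed single subunits in both directions, with a median over all members close to 0. Of the 85 genes, 10 rose and 6 fell in mimic145 relative to cntrl at an adjusted p under 0.05. This is 18.8% of the members, and the share over all genes tested was 22.6% (11.6% higher, 11% lower). The median difference of the members was -0.02, against 0.01 for all genes, and their median absolute difference 0.13, against 0.17. The groups did not overlap for 33 members, a share to be read against 28.4% of all genes. Complex I had 6 genes higher and 3 lower, complex II 1 lower, complex III 2 higher and 1 lower, complex IV 1 lower and complex V 2 higher. Each of the 16 genes moved in its direction in 3 of 3 replicate pairs.

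**Figure D1:**
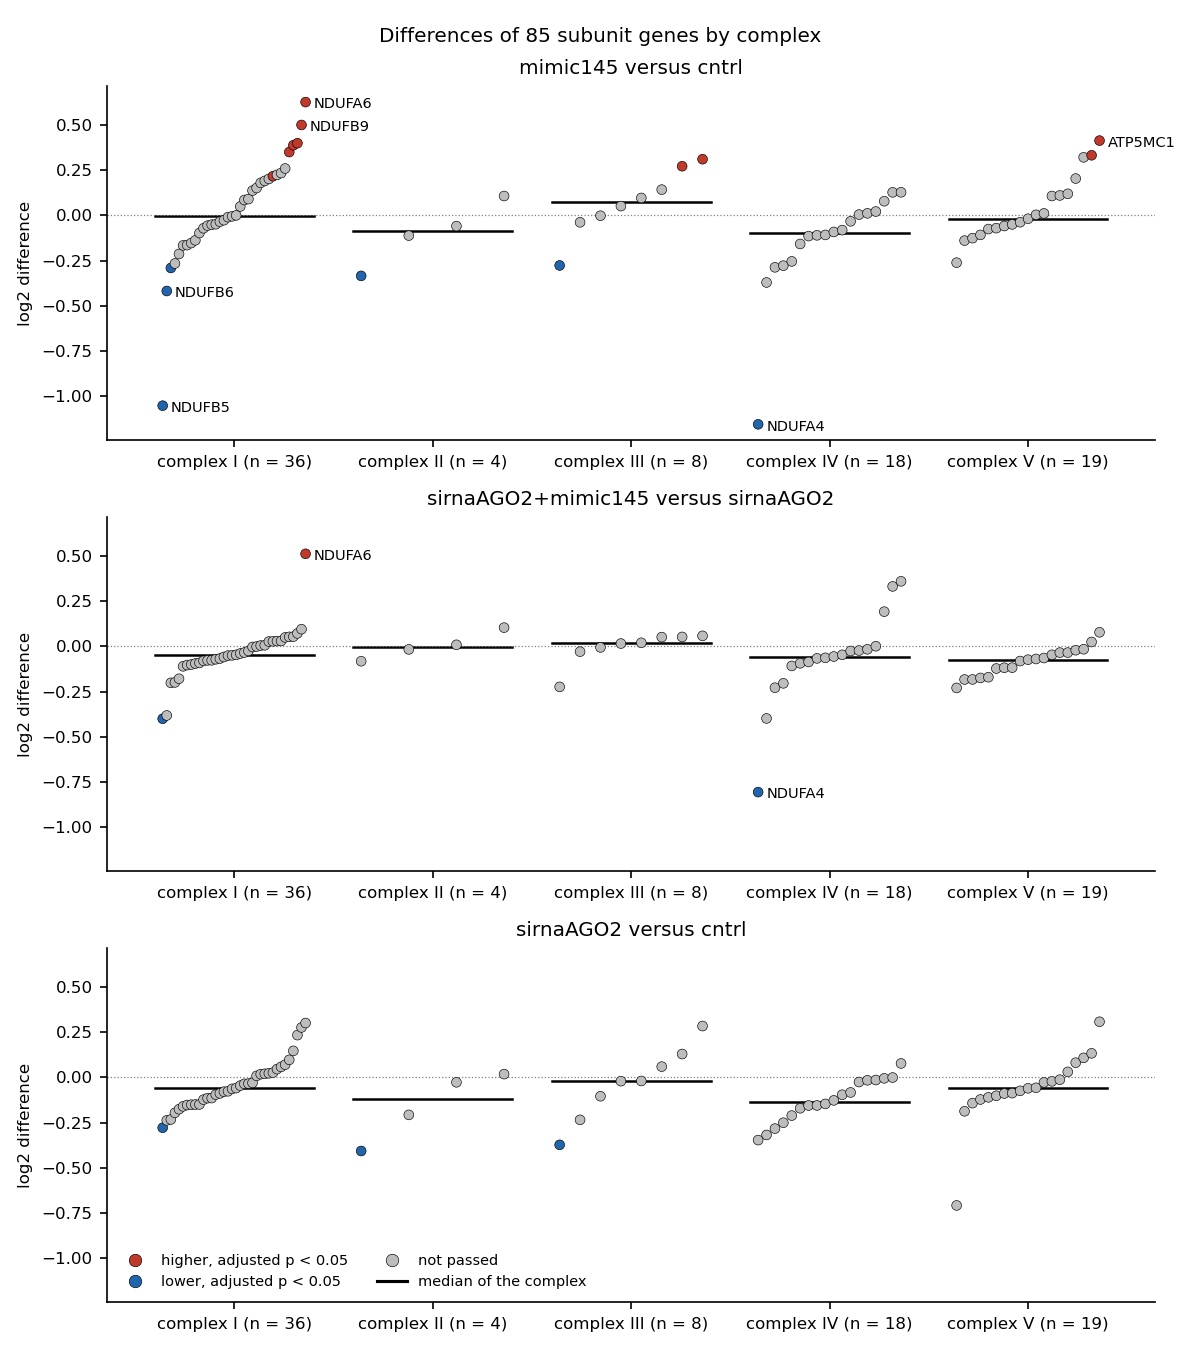
Log2 difference of each of the 85 subunit genes (y axis) by complex (x axis, number of genes in brackets) in the 3 comparisons of groups. Each point is a gene, coloured where its adjusted p was under 0.05, and black lines are medians. In mimic145 versus cntrl NDUFA4 (-1.16) and NDUFB5 (-1.05) lie below all other genes of their complexes, while the medians of the complexes lie between -0.14 and 0.07.

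The largest fall was that of NDUFA4, a small supernumerary protein of the cytochrome c oxidase. Its log2 signal was 14.44, 14.37 and 14.50 in cntrl replicates 1 to 3 and 13.20, 13.31 and 13.33 in mimic145. In sirnaAGO2 it was 14.09, 14.22 and 14.16, and in sirnaAGO2+mimic145 13.45, 13.50 and 13.09. Neither pair of groups with and without the mimic overlapped. The mimic left 44.8% of the signal in control cells (log2 difference -1.16, SE 0.107, adjusted p = 0.000259) and 57.1% in Ago2-silenced cells (-0.81, SE 0.107, adjusted p = 0.0089). The second call was lost without the array of sirnaAGO2 replicate 2 or of sirnaAGO2 replicate 3. The difference between both effects, 0.35 with a 95% interval of 0.01 to 0.69, did not pass (adjusted p = 0.289). AGO2 silencing alone gave -0.28 (adjusted p = 0.196), with no overlap between sirnaAGO2 and cntrl. The exact permutation test of 3 arrays against 3 gave p = 0.1 in all 3 comparisons, the smallest p it allows. All 4 kept probes moved together, by -1.26 to -1.04 in control cells and -0.91 to -0.65 in silenced cells, and the remaining probe was not well above background on any array. The study lists NDUFA4 among genes that fell on these same arrays, so its fall here is not independent evidence. The paper describes the genes of that list as already known direct targets of the miRNA, as recorded in the miRTarBase repository. Whether the fall seen here was direct was not tested.

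NDUFB5, a supernumerary subunit in the membrane arm of complex I, fell almost as far. Its log2 signal was 10.65, 10.55 and 10.52 in cntrl and 9.50, 9.50 and 9.55 in mimic145, and 10.47, 10.36 and 10.44 in sirnaAGO2 and 10.05, 10.03 and 9.98 in sirnaAGO2+mimic145. The 4 groups did not overlap with one another. The mimic left 48.1% of its signal in control cells (-1.05, SE 0.0621, adjusted p = 4.5e-05) and 75.7% in silenced cells (-0.40, SE 0.0621, adjusted p = 0.0141), and all 6 probes fell in both. Here the effects differed by 0.65 (95% interval 0.45 to 0.85), larger in control cells in 3 of 3 pairs and on all 6 probes. Over all genes that difference had an adjusted p of 0.0512, just short of the threshold. It passed under 6 of 12 other processing settings, among them the methods' paired t-test taken without adjustment. The smallest adjusted p over all genes, 0.0169, came after normexp background correction. The difference between the effects did not pass when any 1 array was left out. The call in silenced cells was lost without sirnaAGO2 replicate 2, sirnaAGO2 replicate 3 or sirnaAGO2+mimic145 replicate 3.

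**Figure D2:**
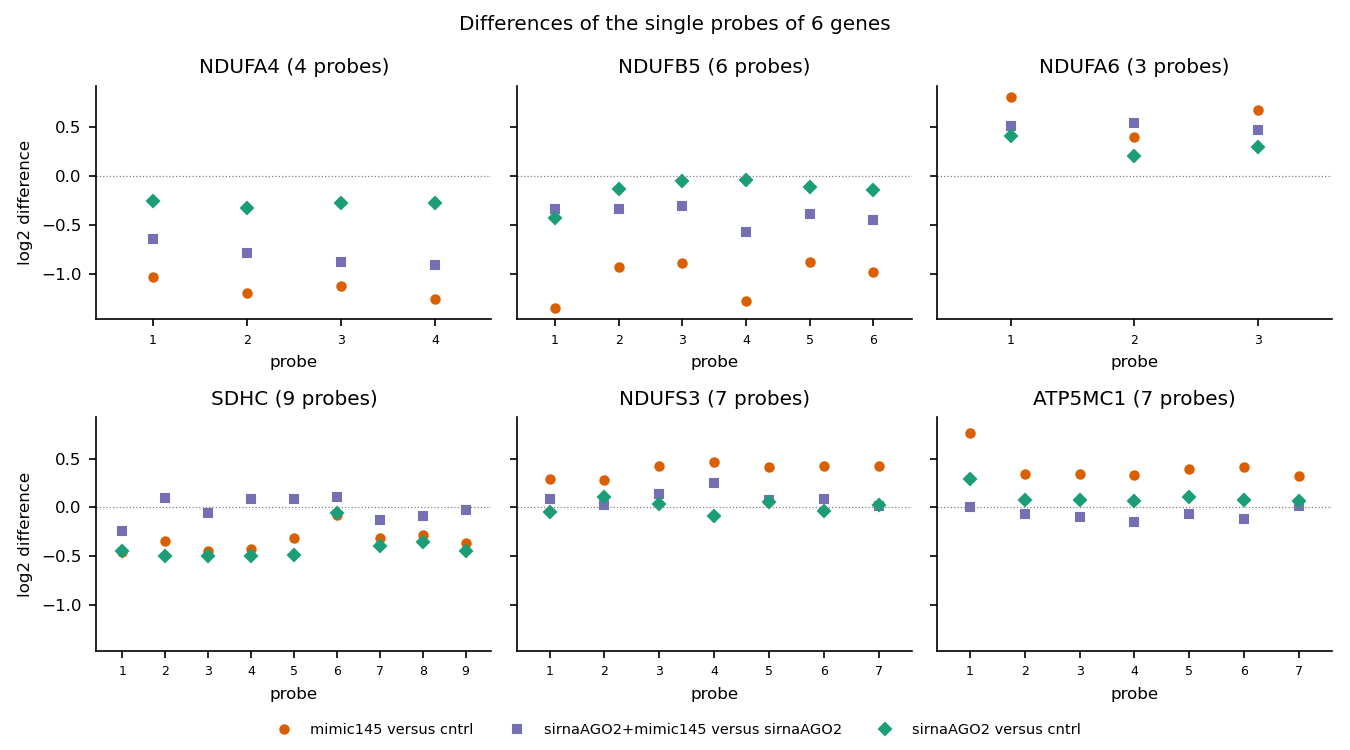
Log2 difference (y axis) of each kept probe (x axis, numbered in no genomic order) of 6 genes in the 3 comparisons. With the mimic in control cells every probe of NDUFA4, NDUFB5 and SDHC is below 0 and every probe of NDUFA6, NDUFS3 and ATP5MC1 above it. In silenced cells the probes of NDUFA4, NDUFB5 and NDUFA6 keep their side, as do those of NDUFS3 closer to 0, and those of SDHC and ATP5MC1 lie on both sides of 0.

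Among the 7 nuclear-encoded core subunits of complex I, which bind the NADH-derived electrons and carry the iron-sulfur clusters, 3 rose. The median difference of the 7 was 0.26. NDUFV2 and NDUFS3 rose: NDUFS3 had log2 signals of 11.44, 11.59 and 11.49 in cntrl and 11.84, 11.94 and 11.91 in mimic145, without overlap (0.39, SE 0.0572, adjusted p = 0.00181, all 7 probes higher). NDUFV2 went from 11.46, 11.60 and 11.65 to 11.94, 11.96 and 12.02 (0.40, SE 0.0779, adjusted p = 0.00682). NDUFS7 rose by 0.35 (adjusted p = 0.015), with overlapping groups, and lost its call without cntrl replicate 1, cntrl replicate 2 or mimic145 replicate 3. NDUFV1 (0.20, adjusted p = 0.0752) and NDUFS8 (0.26, adjusted p = 0.098) are 2 that did not pass.

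Of the 29 supernumerary subunits of complex I, which surround the core and are needed mainly for its assembly and stability, 3 rose and 2 fell. NDUFA6, which belongs to the LYR family of small mitochondrial proteins, rose most. Its log2 signals were 11.73, 12.22 and 11.95 in cntrl, 12.59, 12.71 and 12.48 in mimic145, 12.28, 12.36 and 12.16 in sirnaAGO2, and 12.89, 12.93 and 12.52 with both agents. Both mimic groups were above their own controls without overlap, by 0.63 (SE 0.107, adjusted p = 0.00357) and 0.51 (SE 0.107, adjusted p = 0.0302). The difference between these effects was -0.11 (95% interval -0.46 to 0.23, adjusted p = 0.718). In silenced cells the call was lost when any of 5 arrays of those groups was left out, sirnaAGO2 replicates 1, 2 and 3 and sirnaAGO2+mimic145 replicates 2 and 3. NDUFB9, also a LYR protein, rose in control cells from 11.17, 11.13 and 11.21 to 11.63, 11.56 and 11.83 (0.50, SE 0.0709, adjusted p = 0.00152).

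NDUFS4, an accessory subunit next to the NADH-oxidising module, rose by 0.22 (SE 0.0641, adjusted p = 0.0394), a call that held in only 4 of 12 fits without 1 array. The losses came without any array of cntrl or mimic145 and without sirnaAGO2 replicates 1 and 3. NDUFB6, a membrane-arm neighbour of NDUFB5, fell from 11.64, 11.68 and 11.65 to 11.30, 11.34 and 11.07 (-0.42, SE 0.101, adjusted p = 0.0174). This call was lost without cntrl replicate 2, cntrl replicate 3 or mimic145 replicate 3. The other 24 supernumerary genes did not pass.

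In complex II, which oxidises succinate and is also an enzyme of the tricarboxylic acid cycle, SDHC was the gene that moved. SDHC is one of its membrane anchors. Its log2 signals were 10.69, 10.68 and 10.60 in cntrl, 10.30, 10.43 and 10.23 in mimic145, 10.27, 10.37 and 10.11 in sirnaAGO2, and 10.14, 10.45 and 10.10 with both agents, so cntrl stood above the other 3 groups, which overlapped. SDHC was lower than in the same cntrl arrays with the mimic (-0.34, SE 0.0726, adjusted p = 0.0112) and after the silencing (-0.41, SE 0.0726, adjusted p = 0.0282). The mimic added to silenced cells gave -0.02 (adjusted p = 0.905). All 9 probes were lower in both comparisons with cntrl. The mimic call was lost without cntrl replicate 1, and the silencing call without any of 5 arrays, cntrl replicates 1 and 3 and sirnaAGO2 replicates 1, 2 and 3. The other anchor, SDHD (-0.06 with the mimic, adjusted p = 0.701), the flavoprotein SDHA (-0.11, adjusted p = 0.202) and the iron-sulfur subunit SDHB (0.11, adjusted p = 0.254) did not pass.

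In complex III, UQCRC2, a core protein of the matrix side, rose from 9.98, 9.97 and 9.98 in cntrl to 10.11, 10.32 and 10.32 (0.27, SE 0.0636, adjusted p = 0.0152). The Rieske iron-sulfur protein UQCRFS1 rose from 11.91, 12.02 and 11.80 to 12.25, 12.26 and 12.15 (0.31, SE 0.0926, adjusted p = 0.0403). UQCR11, a small subunit, had 13.79, 13.76 and 14.12 in cntrl and 13.65, 13.40 and 13.78 in mimic145, and fell by 0.28 on the log2 scale (adjusted p = 0.0291) although the groups overlapped. UQCRC2 and UQCR11 lost their calls without replicate 2 or replicate 3 of either cntrl or mimic145. UQCRFS1 kept its call in 3 of 12 fits, those without 1 array of sirnaAGO2+mimic145. CYC1, the cytochrome c1 gene that the symbol rule leaves out, gave 0.34 (adjusted p = 0.0151).

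In complex IV none of the 17 genes other than NDUFA4 passed in limma, with 3 at an unadjusted p under 0.05 (a share over all genes of 35.4%). The paired isoforms gave COX4I1 -0.16 and COX4I2 0.13, COX6A1 0.01 and COX6A2 -0.29, COX6B1 -0.08 and COX6B2 -0.28, COX7A1 -0.11, COX7A2 -0.11 and COX7A2L 0.00, COX7B 0.08 and COX7B2 -0.25, and COX8A 0.13 and COX8C -0.37. NDUFA4L2, the hypoxia-induced paralog of NDUFA4, gave 0.17 (SE 0.168, adjusted p = 0.502).

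In complex V, ATP5MC1 and ATP5PB rose. ATP5MC1 is 1 of 3 genes that encode the same subunit c of the rotating ring, and its log2 signal went from 11.90, 11.91 and 11.93 to 12.29, 12.28 and 12.41 (0.41, SE 0.0662, adjusted p = 0.00264), on all 7 probes. The other two subunit c genes gave -0.14 (ATP5MC2, adjusted p = 0.337) and -0.04 (ATP5MC3, adjusted p = 0.836). ATP5PB, subunit b of the stalk, had 11.997, 12.23 and 12.20 in cntrl and 12.34, 12.56 and 12.52 in mimic145 (0.33, SE 0.0672, adjusted p = 0.00806), on all 6 probes. In sirnaAGO2 its signal was 12.35, 12.46 and 12.53, also above cntrl without overlap (0.31, adjusted p = 0.0503), and in sirnaAGO2+mimic145 12.41, 12.42 and 12.42. ATP5IF1, the inhibitor protein of the ATPase, gave 0.11 (adjusted p = 0.327).

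**Figure D3:**
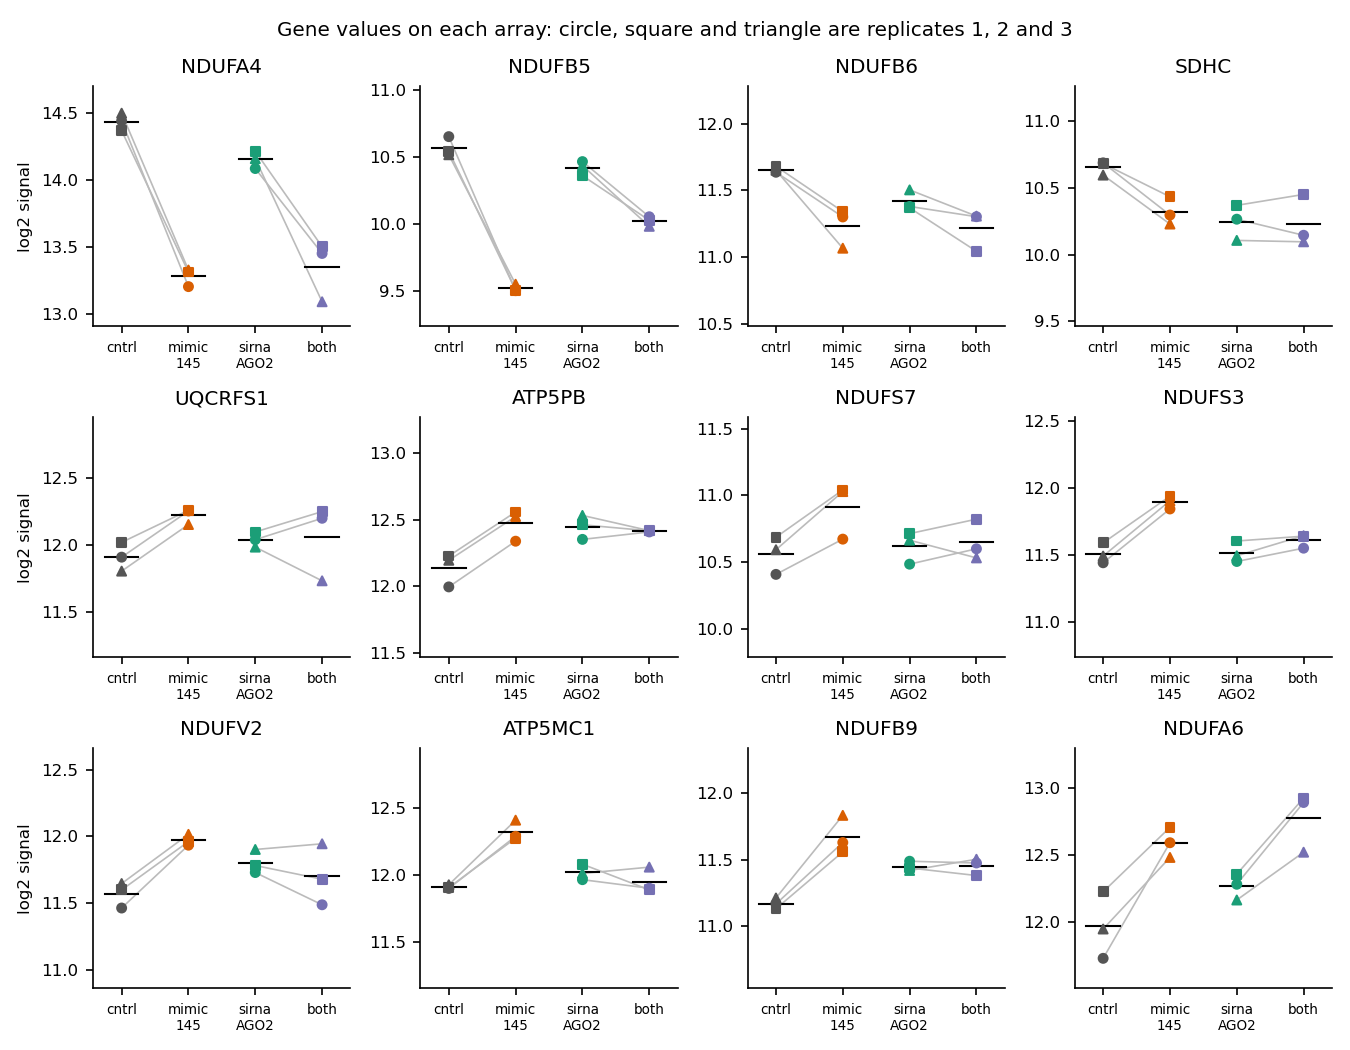
Log2 signal (y axis, the same span of 1.8 in every panel) on each of the 12 arrays for the 12 genes with the largest differences among those that passed in mimic145 versus cntrl, by group (x axis, "both" is sirnaAGO2+mimic145). Markers are replicates, grey lines join arrays of the same replicate number, and black bars are group means. NDUFA4 falls with the mimic in control and silenced cells, and most of the genes that rise in control cells show pairs that go both ways in silenced cells.

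The count of 16 was 10 without cntrl replicate 2, and 4, 8 and 7 without replicates 1, 2 and 3 in all groups. Calls of NDUFA4, NDUFB5, NDUFA6, NDUFB9, NDUFS3, NDUFV2, ATP5MC1 and ATP5PB held in each of 12 fits without 1 array. They differed in the 3 fits without 1 replicate. There NDUFA4, NDUFB5, NDUFA6 and NDUFB9 held in 3, NDUFS3 and ATP5MC1 in 2, NDUFV2 in 1 and ATP5PB in 0. The calls of NDUFV2 and ATP5PB were also lost with the median over probes. On every slide the mimic array lay at the second position, so that position and mimic cannot be told apart.

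In Ago2-silenced cells the mimic changed 3 members, NDUFA6 upward and NDUFA4 and NDUFB5 downward. The share is 3.53%, with 7.27% of all genes tested called (4.24% higher, 3.03% lower). The 3 genes are among the 16 of the first comparison, whose group means came from other arrays. The same limma fit of all arrays, with shared replicate blocks and variance, gave both tests, so the overlap is not an independent replication. The median difference was -0.05, against 0.02 for all genes, and 13 members had groups without overlap, where the share over all genes is 24.1%. In complex V 17 of 19 genes had a difference below 0, with none past the test, where 8385 of all 18252 genes were below 0. The other 13 genes called in control cells lay between -0.22 (UQCR11) and 0.10 (NDUFS3). The 9 other genes that rose in control cells lay between -0.10 and 0.10 here. Without sirnaAGO2 replicate 2 or sirnaAGO2 replicate 3 the count was 0. Removal of sirnaAGO2+mimic145 replicate 3 left 1.

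The effects of the mimic in control and silenced cells were then tested against each other. No member passed in limma's fit, and over all 18252 genes 2 did, 0.011% (0.00548% in each direction). At an unadjusted p under 0.05 in limma there were 18 members, where the share over all genes is 16.8%. The methods' paired t-test gave 12 members unadjusted, without a share over all genes to read it against. For the 10 genes that rose in control cells the difference of effects (silenced minus control) lay between -0.50 and -0.11, and for the 6 that fell between 0.05 and 0.65. After NDUFB5 the smallest adjusted p values were those of ATP5MC1 (-0.48, 95% interval -0.70 to -0.27, adjusted p = 0.0817), NDUFB9 (-0.50, -0.72 to -0.27, adjusted p = 0.0835) and NDUFV2 (-0.50, -0.75 to -0.25, adjusted p = 0.0975). The effect in control cells enters both the choice of these genes and the difference, so the range is a description.

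**Figure D4:**
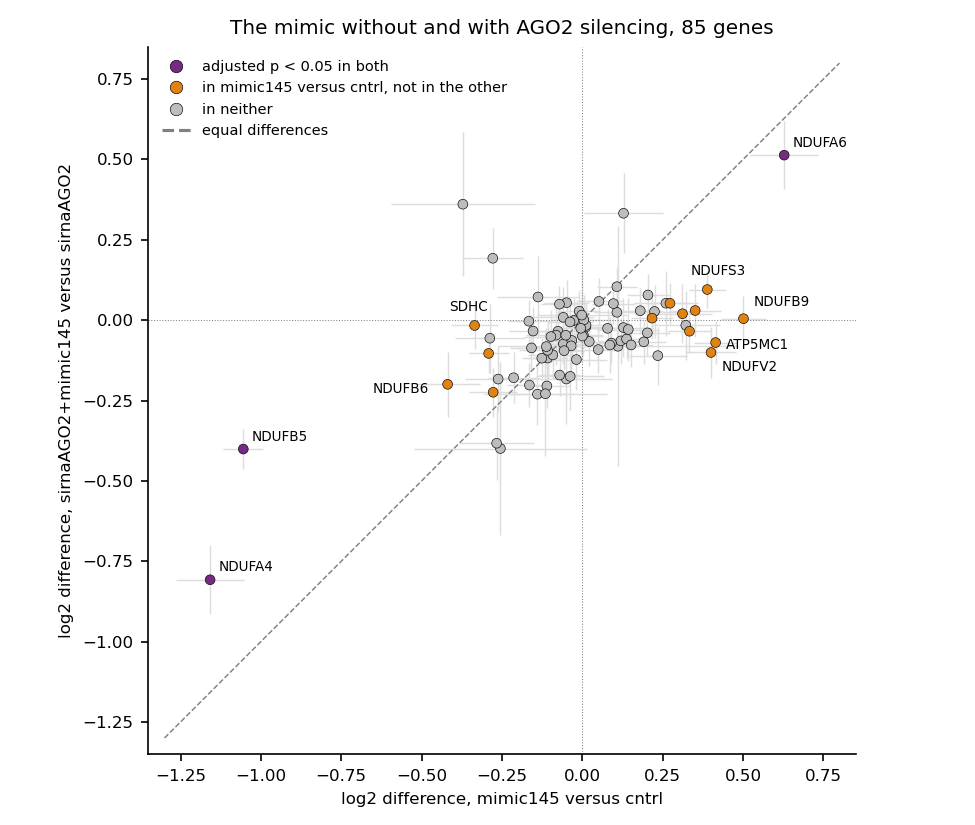
Log2 difference with the mimic in control cells (x axis) and in Ago2-silenced cells (y axis) for the 85 genes, with SE bars. The group means compared on the 2 axes come from different arrays, but the SE of both come from the same fit of all arrays. The dashed line marks equal differences. NDUFA4, NDUFB5 and NDUFA6 lie away from 0 on both axes, while NDUFB9 (0.50 and 0.00), ATP5MC1 (0.41 and -0.07) and SDHC (-0.34 and -0.02) lie close to the horizontal line at 0.

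After silencing of AGO2 by itself 3 members were lower than in cntrl, SDHC (above), UQCR10 and NDUFB3, and none was higher. They are 3.53% of the members, and 2.58% of all genes tested were called (0.888% higher, 1.69% lower). No slide held arrays of both sirnaAGO2 and cntrl, so silencing and slide cannot be told apart in any comparison of these groups. UQCR10, a small subunit of complex III, had 10.56, 10.54 and 10.57 in cntrl and 10.00, 10.25 and 10.29 in sirnaAGO2 (-0.37, SE 0.0721, adjusted p = 0.037). NDUFB3, a membrane-arm subunit of complex I, had 10.92, 11.08 and 10.85 in cntrl and 10.60, 10.80 and 10.61 in sirnaAGO2 (-0.28, SE 0.0571, adjusted p = 0.0424). Neither overlapped between the groups, and with the mimic in control cells their differences were -0.04 and -0.07. Groups did not overlap for 29 members (19.1% of all genes). The median difference of the members was -0.07, against -0.03 for all genes. In complex IV 17 of 18 genes had a difference below 0, with a median of -0.14 and none past the test. Over all 18252 genes tested, 10475 were below 0. The calls depended on single arrays: UQCR10 and NDUFB3 each held in 1 of 12 fits without 1 array, and the count of 3 was 0 to 1 in all of those fits except the ones without sirnaAGO2+mimic145 replicate 1 (2) and sirnaAGO2+mimic145 replicate 2 (3).

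Genes around the complexes were counted by lists. Assembly factors put the subunits together, insert heme, copper and iron-sulfur clusters, and do not stay in the finished enzyme. With the mimic in control cells 13 of 58 rose and 5 fell, 31.0% against 22.6% of all genes, and their median difference was 0.11. The largest rise was UQCC6 (0.97, SE 0.0684, adjusted p = 9.3e-05), a small factor of complex III assembly. COX16, needed to build the copper center of complex IV, fell most (-1.06, SE 0.159, adjusted p = 0.00197), with TIMMDC1, a complex I factor, at -0.50 (adjusted p = 0.00111). NDUFAF4 (0.49), COX19 (0.48), LYRM7 (0.42) and NDUFAF1 (0.41) also rose. In silenced cells 5 of the 58 passed with the mimic, 8.62% against 7.27% of all genes. UQCC6 (0.64, adjusted p = 0.00465) and COX19 (0.34, adjusted p = 0.0398) rose and COX16 (-0.72, adjusted p = 0.0358), NDUFAF5 and TMEM126B fell. After AGO2 silencing SDHAF1, a factor for complex II measured by 1 probe, was higher (0.45, adjusted p = 0.0266). No other of the 58 passed, so the share was 1.72%, against 2.58% of all genes.

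The electron carriers, 14 genes of ubiquinone synthesis, cytochrome c and the electron transfer flavoprotein, had 1 gene higher and 2 lower with the mimic, 21.4% against 22.6% of all genes. ETFB (-0.92, SE 0.0716, adjusted p = 0.000123) and ETFDH (-0.94, SE 0.152, adjusted p = 0.00278) fell, which together bring electrons from fatty acid oxidation to ubiquinone, and COQ6 rose by 0.21 (adjusted p = 0.0449). Of 4 carriers that exchange ADP, ATP and phosphate across the inner membrane, SLC25A4 (0.67, adjusted p = 0.000648) and SLC25A3 (0.23, adjusted p = 0.0234) rose, 50% of the list. Among 12 transcription regulators of these genes PPARGC1A (-0.46, adjusted p = 0.00346), the coactivator PGC-1 alpha, and TFAM (-0.38, adjusted p = 0.0375), which binds mitochondrial DNA, fell, 16.7% of the list. PPARGC1A was also lower after AGO2 silencing alone (-0.66, adjusted p = 0.0081). Its mean log2 signal in cntrl was only 7.02, close to the 6.97 of ESR1 and below the median of 8.05 for all genes tested. Both falls are thus those of a gene with a low signal.

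**Figure D5:**
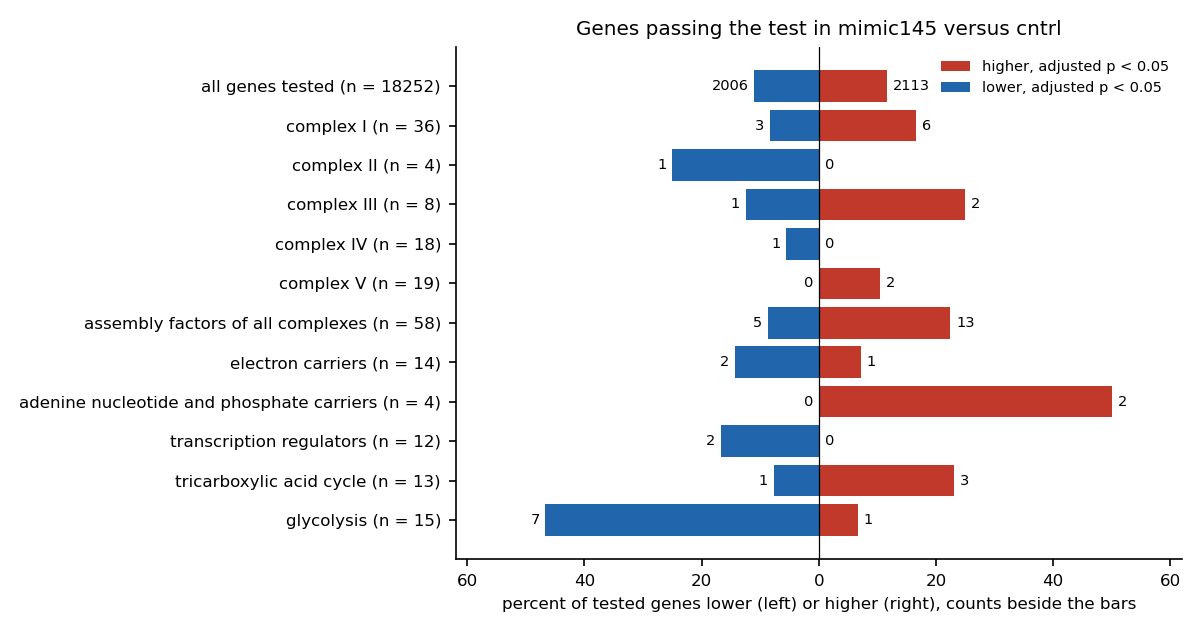
Percent of the tested genes of each list (rows, number of genes in brackets) that were higher (right) or lower (left) in mimic145 versus cntrl at an adjusted p under 0.05, with counts beside the bars. Complexes I, III and V and the assembly factors have more genes higher than lower, and glycolysis has 7 lower and 1 higher of 15.

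Likeness to NDUFA4 was measured as Pearson's r over the 12 arrays, after removal of replicate means, among genes with 3 or more kept probes. The 5 most alike of all genes were KIAA0319L (r = 0.991), OSBPL1A (0.990), MORN2 (0.988), GNPTAB (0.985) and CD99L2 (0.984), whose differences with the mimic in control cells ran from -1.09 (MORN2) to -0.43 (CD99L2). Of the members NDUFB5 (0.904) was the most alike, and the median r of the other 84 members was 0.17, against -0.10 for all genes. All points share the 12 arrays and 4 groups, so these values are a description.

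Promoters of the members were searched for 3 motifs of factors known to act at such genes. They were the palindromic motif of NRF1, CCGGAAGT for the ETS factor GABP and ATGGCGGC for YY1, on both strands, from 250 bases before to 50 after the start site. RefSeq promoters (GRCh38.p14) were at hand for 70 of the 85 members, not for NDUFB5, NDUFB9 or SDHC among others. NRF1 letters were found in 17 (24.3%, against 10.6% of 14206 promoters of tested genes), ETS letters in 12 (17.1%, against 7.72%) and YY1 letters in 12 (17.1%, against 5.79%), and motifs can overlap. For 10 of the 12 members the YY1 letters began at or after the start site. Among the 9 members with a promoter that rose with the mimic, NRF1 letters were found in 1, ETS letters in 0 and YY1 letters in 2, and among the 3 that fell in 1, 1 and 0. NDUFA4 and NDUFA6 held none of the 3. UQCR11, which fell, and UQCRFS1, which rose, are shown because both hold NRF1 letters yet moved in opposite directions. Each run is the 150 bases before the start site (chr19:1605463-1605612 and chr19:29213152-29213301, both on the minus strand, read 5′ to 3′), with the matches in capitals.
UQCR11: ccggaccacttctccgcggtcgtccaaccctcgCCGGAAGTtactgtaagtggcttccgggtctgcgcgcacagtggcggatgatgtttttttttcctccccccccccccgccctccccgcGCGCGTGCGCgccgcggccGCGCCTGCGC
UQCRFS1: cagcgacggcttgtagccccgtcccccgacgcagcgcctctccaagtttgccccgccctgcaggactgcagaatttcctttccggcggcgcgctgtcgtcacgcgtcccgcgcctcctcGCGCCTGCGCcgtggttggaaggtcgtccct
The first match of UQCR11 is to the ETS letters, and the others, in both promoters, are to the NRF1 letters on the opposite strand.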

How the data were processed

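MDA-MB-231 RNA was hybridised in a single colour, 1 array per sample (12 arrays, 6 slides). The authors read the arrays with Feature Extraction 10.7.3.1 and deposited, per array, the processed signal intensity, without normalization across arrays. A second deposited file holds the authors' quantile normalized log2 values of 217027 probes, which served as an alternative. Here processed intensities were floored at 1, quantile normalized and log2 transformed. The number of arrays, rather than a read depth, limits precision. Spots well above background made up 60.5% to 77.3% per array. Control spots and outlier spots (304 to 462 per array) were removed. Probes entered a gene's value if all 3 arrays of some group read them well above background, and a gene value is the mean of its kept probes (142919 probes, 18252 genes). Probes were named through the RefSeq accession they carry (209671 of 233164 matched). Whole-transcript labelling was used, and overlapping or near-identical transcripts can share a probe's signal.

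Groups and replicate numbers came from the labels. Limma 3.58.1 (R 4.3.3) fitted the 4 groups with the replicate number as a block, because the study's methods use a paired test. Arrays of the same number deviated together: the correlations of their deviations from group means ran from 0.148 to 0.576 over 18 pairs, against -0.497 to 0.201 between numbers. All p-values are two-sided and adjusted by Benjamini and Hochberg's procedure over every tested gene of a comparison, with a threshold of 0.05. Where nothing says that replicates were separate cultures, these p-values measure the spread between samples. The procedure was tested on simulated data. The genes named are all members that passed (except 1 that is not reported here), NDUFA4, NDUFB5, the SDH genes, ATP5IF1, the paired isoforms, the 3 brightest and 3 dimmest members in cntrl, and genes of the lists with the largest differences. Members and lists were chosen with earlier results of these data known. Lists are described by counts and medians, without a set test. Python 3.11.15 with pandas 2.3.3 and matplotlib 3.10.9 handled sequences and plots. Alternatives were other scalings, background correction, filters, probe summaries, blocks and tests, and the removal of each replicate and array.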

Additional observations from a re-analysis of the deposited data

Results flagged for a closer look

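For 2 members of 85 every replicate pair went one way with the mimic in control cells and the other way in silenced cells. Such genes were not counted over all genes tested, so this count has no share to be read against. COX6B2, the testis-type isoform of a complex IV subunit, was lower in 3 of 3 pairs of control cells (-0.28, adjusted p = 0.0662, limma) and higher in 3 of 3 pairs of silenced cells (0.19, adjusted p = 0.216). The difference of effects, 0.47, was tested and did not pass (adjusted p = 0.153). For NDUFA2, a complex I subunit, the effects were 0.09 and -0.07 and the difference -0.16 (adjusted p = 0.405).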

How the results depend on the processing

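No difference of a member that passed changed sign under any of the settings run. The median of the members with the mimic in control cells, -0.02, was 0.02 without replicate 3 and 0.01 without cntrl replicate 3, so its sign is not settled. With 3 arrays per group, calls near the threshold depend on the model. Without the replicate block the members called with the mimic in control cells were 9 in place of 16, in silenced cells 1 in place of 3, and after silencing alone 0 in place of 3. In fits restricted to the 6 arrays under comparison, these counts were 7, 0 and 0. Unadjusted, the methods' paired t-test called 9 in silenced cells, 19 after silencing and 12 for the difference of effects. This is a looser threshold than that of the other counts. After Benjamini-Hochberg adjustment it called 0 in every comparison, and AGO2 (-0.71) did not pass either. Over all settings run, the count with the mimic in control cells ran from 0 to 23. Counts of these settings are given without their shares over all genes, and so describe only how the calls depend on the processing. In silenced cells the count was 7 with normexp correction, 5 with the authors' table and 1 with the slide as a fixed block, and NDUFA6 did not pass in any of these. After silencing it was 5 with normexp, 6 with probes well above background on all arrays, 1 with the median over probes, 0 with the slide as a random block and 5 with an intensity trend. For the difference of effects, where 0 passed, these settings gave 2 (normexp), 1 (authors' table), 3 (all arrays), 1 (slide, random) and 2 (trend). Leaving out a replicate or an array gave 4 to 17 members with the mimic in control cells, 0 to 4 in silenced cells, 0 to 3 after silencing and 0 for the difference of effects, and -0.78 to -0.64 for AGO2.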

Other observations

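Glycolysis and the tricarboxylic acid cycle, 2 other routes of energy metabolism, held genes that moved with the mimic in control cells. Of 13 tested genes of the tricarboxylic acid cycle, which feeds electrons to complexes I and II, 3 rose and 1 fell: FH, fumarate hydratase, by 0.71 (SE 0.0778, adjusted p = 0.000538), IDH3A by 0.45 (adjusted p = 0.0115) and OGDH by 0.37 (adjusted p = 0.00568), with SUCLG2 at -0.32 (adjusted p = 0.0298). These are 30.8% of the list, against 22.6% of all genes, and the median difference was 0.08. Of 15 genes of glycolysis, 7 fell and 1 rose, 53.3% against the same 22.6% (11% lower, 11.6% higher), with a median of -0.23, against 0.01 for all genes. ALDOA (aldolase) gave -0.62 (adjusted p = 0.00402), PGK1 -0.40 (adjusted p = 0.00885), PFKL -0.39 (adjusted p = 0.00487), GPI -0.36 (adjusted p = 0.0326) and LDHA -0.28 (adjusted p = 0.0356), while LDHB gave 0.21 (adjusted p = 0.0473). In silenced cells no gene of either list passed (4 of glycolysis and 2 of the cycle at an unadjusted p under 0.05, where the share over all genes is 28.8%), and the tests of the differences of effects called none of them. FH was also higher after AGO2 silencing alone (0.39, adjusted p = 0.0406).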
